A study of Mus musculus with 14 samples.

Results

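The transcripts described here encode the maturation-promoting factor and the proteins that restrain or release it. They were chosen by gene symbol from the platform annotation. The rule names 10 genes, of which 8 carry 17 of the 25697 probes of the array. These are Cdk1 (3 probes), Ccnb2 (1), Wee2 (1), Cdc25b (1), Cdc25c (3), Fzr1 (3), Cdc20 (4) and Fbxo5 (1). No probe carries Ccnb1, the major B-type cyclin, or Fbxo43, which encodes EMI2, as its only annotated symbol, and these genes were not analysed here. Probes annotated to several symbols were not assigned to a gene.

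The maturation-promoting factor is a complex of the kinase CDK1 with cyclin B, and its activation drives the oocyte out of prophase arrest, through breakdown of the germinal vesicle (GV) and into the first meiotic division. In the arrested oocyte high cyclic AMP keeps protein kinase A active. WEE2 then holds CDK1 phosphorylated and inactive, CDC25 phosphatases are kept from removing that phosphate, and the anaphase-promoting complex (APC/C) with its activator FZR1 (CDH1) keeps cyclin B low. EMI1, the product of Fbxo5, inhibits the APC/C, and CDC20 activates it later, at the metaphase-to-anaphase transition. Much of this control acts on proteins and on translation of stored messenger RNA, which an expression array does not read.

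RNA was measured on 14 one-colour Illumina mouse arrays in 4 groups of GV oocytes. All of them carried, at Rosa26, human AGO2 with myc and GFP tags behind a loxP-flanked stop. The first set held 4 samples positive for Zp3-Cre, in which an oocyte-specific promoter drives the recombinase that removes the stop, and 4 Zp3-Cre-negative samples. The second set held 3 Zp3-Cre-positive and 3 Zp3-Cre-negative samples injected with miR-15a mimic at 2 µM. The donor mice had received PMSG, a gonadotropin, at 5 units and 48 h ahead of the injection, and oocytes were cultured overnight in 2 µM milrinone, a phosphodiesterase inhibitor that keeps cyclic AMP high, so all groups were held in arrest. The labels name no strain, age or injection for the first set, nor whether samples came from separate animals, so p-values measure only the spread between these samples. No group had Cre without the AGO2 transgene, and their effects cannot be told apart.

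The sequence that sets the second set of oocytes apart is shown here in the form of the natural mature microRNA, from RefSeq (GRCm38.p6). The exact make-up of the synthetic duplex is not given in the labels. Capitals mark the seed, bases 2 to 8, through which a microRNA pairs with its targets.
mmu-miR-15a-5p: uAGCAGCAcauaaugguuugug

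The Ago2 transcript, which checks the Cre labels, was higher in Cre-positive oocytes of both sets. Its log2 signal was 6.76 to 6.98 in Cre-positive and 4.63 to 5.06 in Cre-negative oocytes without mimic, and 8.33 to 8.53 in Cre-positive and 5.91 to 6.24 in Cre-negative oocytes with mimic. These values are from the brightest Ago2 probe of the mouse array. Whether it reads the human transgene or mouse Ago2 was not tested. The mean raw intensity per array lay between 118 and 151 without mimic and between 339 and 380 with mimic, and each set was normalized on its own, so levels are compared only within a set. Cre-positive replicate 1 without mimic had the fewest detected probes (11652, against 13294 or more on the others of that set), and a principal component analysis of the set placed Cre-positive replicate 4 at 24.1 on its first axis and all other arrays between -6.75 and 2.68. All 12 oocyte markers passed the detection filter in both sets. Of 18 granulosa and cumulus cell markers with a probe, 5 passed without mimic and 6 with mimic. Those that passed were Nr5a2, Fshr, Kitl and Npr2 in both sets, Cyp11a1 without mimic, and Inhba and Has2 with mimic. Nppc, Fst, Inha, Ptx3 and Tnfaip6 were detected on no array. The summed signal of these 18 markers, most of which did not pass, was higher with Cre, at 449 to 493 in Cre-positive and 428 to 448 in Cre-negative oocytes without mimic, and at 949 to 1027 in Cre-positive and 906 to 947 in Cre-negative oocytes with mimic. The sum over the 12 oocyte markers was 8765 to 11256 in Cre-positive and 9033 to 9815 in Cre-negative oocytes without mimic. With mimic it too was higher with Cre, at 29488 to 32350 in Cre-positive and 28190 to 29128 in Cre-negative oocytes. The part of these sums in the values below was not tested. In RNA of pooled cells, fewer cells of a type and less RNA per cell cannot be told apart.

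Transcripts of 7 of the 8 measured genes were detected on every array by their brightest probe. Ccnb2 was the exception and was missed on 1 Cre-positive array without mimic. No transcript of this group passed the test for a Cre effect in either set, and no Cre effect on them differed between the sets at the threshold (limma, Benjamini-Hochberg adjustment over all genes, adjusted p under 0.05). Among the brightest probes Wee2 without mimic had the largest difference, at a log2 value of -0.29 ± 0.15 SE, and a dimmer probe of Cdc20 stood at -0.38.

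**Figure D1:**
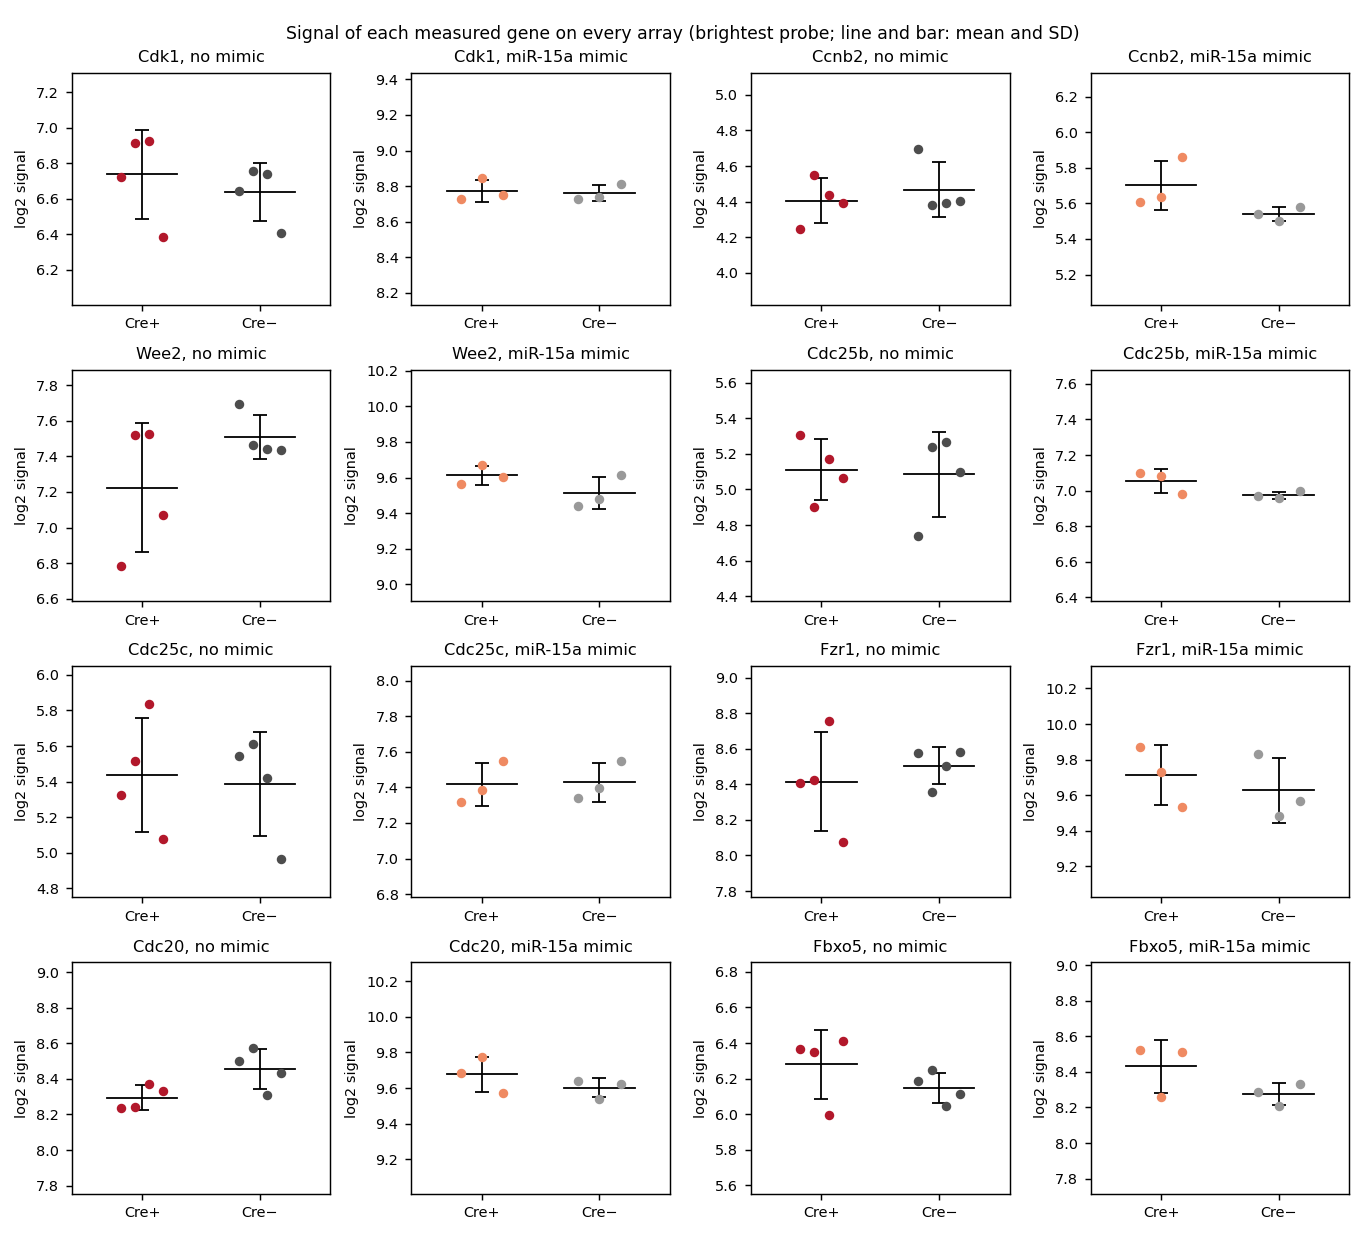
Log2 signal of the brightest probe of each of the 8 genes on each array (points), with the group mean and SD (line and bar), Cre-positive left of Cre-negative. Each gene has a panel for the set without mimic (4 and 4 arrays) and for the set with miR-15a mimic (3 and 3 arrays), and all panels span the same number of log2 units. Groups overlap in every panel except that of Ccnb2 with mimic.

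Cdk1, the catalytic subunit, was nearly level between the groups. Without mimic its log2 signal was 6.72, 6.91, 6.92 and 6.39 in Cre-positive oocytes, against 6.65, 6.76, 6.74 and 6.41 in Cre-negative oocytes. The groups overlapped, and each had 1 sample below its others. With mimic the values were 8.73, 8.84 and 8.75 in Cre-positive oocytes, against 8.73, 8.74 and 8.81 in Cre-negative oocytes. The Cre effect on Cdk1 was 0.10 ± 0.13 SE without mimic (limma adjusted p = 0.957, two-sided exact permutation p = 0.571) and 0.01 ± 0.08 SE with mimic (limma adjusted p = 0.984, exact permutation p = 0.700). The 95% interval of the fold change ran from 0.887 to 1.29 without mimic and from 0.879 to 1.16 with mimic. With Cre-positive replicates 1 and 4 both left out, chosen after seeing the data, the effect without mimic was 0.28 for Cdk1 (limma adjusted p = 0.9997). It was the only one of the 8 genes with an unadjusted p under 0.05 in that fit, where 3.85% of 10517 genes had one. Under median scaling of all 8 arrays the effect on Cdk1 was -0.01. A further Cdk1 probe, ILMN_2961747, gave -0.09 without and 0.11 with mimic. The last one, ILMN_2698252, was detected on none of the 8 arrays without mimic and on 3 of 6 with mimic, at log2 4.84 ± 0.17 in Cre-positive and 4.99 ± 0.07 in Cre-negative oocytes (SD, n = 3 each).

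Ccnb2 encodes cyclin B2, the B-type cyclin of this group that the array measured. Its signal lay close to background without mimic, at 4.25, 4.55, 4.44 and 4.39 in Cre-positive oocytes, against 4.70, 4.38, 4.39 and 4.40 in Cre-negative oocytes. The groups overlapped, and 1 Cre-negative array was above the rest. With mimic Ccnb2 stood at 5.61, 5.64 and 5.86 in Cre-positive oocytes, against 5.54, 5.50 and 5.58 in Cre-negative oocytes. Here the Cre-positive samples all lay above the Cre-negative ones, the only such case among the 8 genes. Groups that do not overlap were found for 12.6% of all 9883 genes tested with mimic, so 1 in 8 is near that background. The Cre effect on Ccnb2 was -0.06 ± 0.11 SE without mimic (limma adjusted p = 0.970) and 0.16 ± 0.10 SE with mimic (limma adjusted p = 0.785, exact permutation p = 0.100, the smallest that 3 against 3 can give). The probe is dim, and without background correction the effect with mimic was 0.05.

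Wee2, the oocyte kinase that keeps CDK1 inactive, had the largest Cre effect without mimic among the brightest probes of the 8 genes. Its log2 signal was 6.78, 7.52, 7.53 and 7.07 in Cre-positive oocytes, against 7.69, 7.47, 7.44 and 7.44 in Cre-negative oocytes. The Cre-positive samples fell apart, with replicates 2 and 3 level with the Cre-negative oocytes and replicates 1 and 4 below all of them. Replicate 1 is the array with the fewest detected probes, and replicate 4 is the one outlying on the first principal component. Whether either trait bears on the Wee2 values was not tested. The mean difference was -0.29 ± 0.15 SE, a fold of 0.821 with a 95% interval of 0.660 to 1.02 (limma adjusted p = 0.948, unadjusted p = 0.0725, exact permutation p = 0.286). With replicates 1 and 4 left out, an alternative chosen after seeing the data, the Wee2 difference was 0.01 (limma adjusted p = 0.9997). Leaving out replicate 1 alone gave -0.14, and leaving out replicate 4 alone gave -0.23. Other alternatives made the difference larger, at -0.38 without Cre-positive replicate 2, -0.39 without Cre-positive replicate 3 and -0.38 under median scaling. Each of these had an unadjusted limma p under 0.05, and none passed (lowest limma adjusted p = 0.594, without replicate 3). With mimic Wee2 was even, at 9.56, 9.67 and 9.60 in Cre-positive oocytes, against 9.44, 9.48 and 9.61 in Cre-negative oocytes. The difference there was 0.10 ± 0.09 SE (limma adjusted p = 0.852, exact permutation p = 0.300).

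CDC25B is the phosphatase that mouse oocytes need to resume meiosis, and CDC25C is its relative. Cdc25b was 5.31, 4.90, 5.17 and 5.06 in Cre-positive oocytes without mimic, against 4.74, 5.24, 5.27 and 5.10 in Cre-negative oocytes. The lowest value of the set was a Cre-negative one, and the Cre effect was 0.03 ± 0.13 SE (limma adjusted p = 0.993). With mimic Cdc25b was 7.10, 7.08 and 6.98 in Cre-positive oocytes, against 6.97, 6.96 and 7.00 in Cre-negative oocytes, a difference of 0.08 ± 0.08 SE (limma adjusted p = 0.874). The 95% interval of its fold change was 0.843 to 1.23 without mimic and 0.924 to 1.21 with mimic. Without mimic the probe was dim, at a raw intensity of 90.8 to 104. The Cdk1 probe detected on no array of that set lay at 73.4 to 83.4. The intervals are of signal with an offset of 16 added, which narrows fold changes of dim probes. At an offset of 1 the Cdc25b effect without mimic was 0.06.

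By its brightest probe Cdc25c was 5.33, 5.52, 5.83 and 5.08 in Cre-positive oocytes without mimic, against 5.54, 5.61, 5.42 and 4.97 in Cre-negative oocytes. It was among the most variable of all tested genes in this set, at the 96.8th percentile of residual SD, and the ranges nearly coincided. With mimic it was 7.32, 7.39 and 7.55 in Cre-positive oocytes, against 7.34, 7.40 and 7.55 in Cre-negative oocytes, with no visible shift. The Cre effects were 0.05 ± 0.16 SE and -0.01 ± 0.10 SE (limma adjusted p = 0.988 in each set). Without Cre-positive replicates 1 and 4 the first of these was 0.29 (limma adjusted p = 0.9997). The other Cdc25c probes gave -0.03 and 0.12 without mimic and -0.05 and -0.10 with mimic. The brightest probe was dim without mimic, at a raw intensity of 91.2 to 122, and its effect was 0.08 at an offset of 1.

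**Figure D2:**
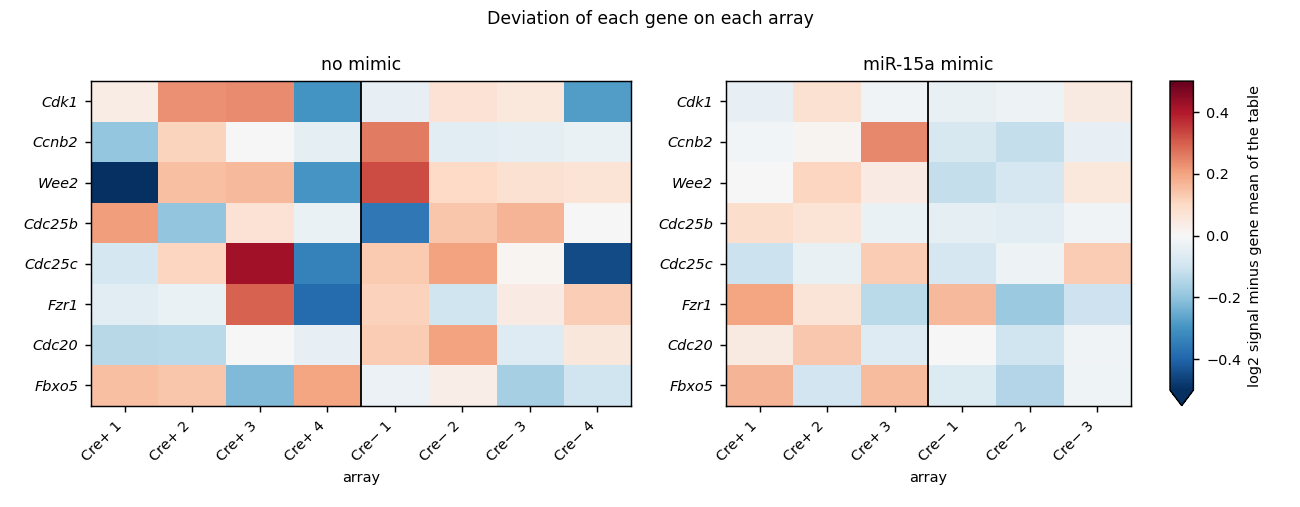
Log2 signal of each gene's brightest probe on each array minus that gene's mean over the set, without mimic (left, 8 arrays) and with miR-15a mimic (right, 6 arrays), Cre-positive arrays left of the black line. Colours range from 0.5 below to 0.5 above the mean, and Wee2 on Cre-positive array 1 without mimic, at 6.78, lies beyond the scale. The set without mimic is the more uneven, and Cre-negative array 2 with mimic is the array on which all 8 genes lie below their mean.

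Fzr1 encodes CDH1, the APC/C activator of the arrested oocyte. Its brightest probe gave 8.40, 8.43, 8.76 and 8.07 in Cre-positive oocytes without mimic, against 8.57, 8.36, 8.50 and 8.58 in Cre-negative oocytes. Cre-positive replicates 3 and 4 were the highest and the lowest of the whole set, and the Cre-negative samples lay between them. With mimic it gave 9.87, 9.73 and 9.53 in Cre-positive oocytes, against 9.83, 9.48 and 9.56 in Cre-negative oocytes. The Cre effect on Fzr1 was -0.09 ± 0.13 SE (limma adjusted p = 0.961) without mimic and 0.08 ± 0.13 SE (limma adjusted p = 0.916) with mimic. With 1 array left out at a time the effect without mimic ran from -0.20 (without Cre-positive replicate 3) to 0.02 (without Cre-positive replicate 4), and with mimic from 0.01 (without Cre-positive replicate 1) to 0.19 (without Cre-negative replicate 1). The other 2 Fzr1 probes gave 0.01 and -0.07 without mimic and 0.08 and 0.05 with mimic, so all 3 stayed within 0.09 of 0 on the log2 scale.

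Cdc20, the activator of the APC/C at the metaphase-to-anaphase transition, was measured by 4 probes, all detected on every array. The brightest, ILMN_2867899, gave 8.23, 8.24, 8.37 and 8.33 in Cre-positive oocytes without mimic, against 8.50, 8.57, 8.31 and 8.43 in Cre-negative oocytes. The groups overlapped by 1 Cre-negative sample, and the difference was -0.16 ± 0.10 SE (limma adjusted p = 0.948, exact permutation p = 0.0857). When every passing probe was tested, all 4 Cdc20 probes lay below 0 without mimic, at -0.16, -0.24, -0.38 and -0.04. The largest of these differences belonged to ILMN_2698767, at log2 6.85 ± 0.19 in Cre-positive and 7.24 ± 0.18 in Cre-negative oocytes (SD, n = 4 each), with an unadjusted p of 0.00544 that did not pass over 13080 probes (limma adjusted p = 0.862). The 4 probes read the same transcripts in the same samples and are not separate evidence. With mimic they did not share a sign, at 0.08, 0.06, -0.10 and -0.03. The brightest then gave 9.68, 9.77 and 9.57 in Cre-positive oocytes, against 9.64, 9.54 and 9.62 in Cre-negative oocytes (limma adjusted p = 0.896).

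Fbxo5, which encodes the APC/C inhibitor EMI1, lay slightly above 0 in both sets without passing in either. Without mimic it was 6.36, 6.35, 5.99 and 6.41 in Cre-positive oocytes, against 6.18, 6.25, 6.05 and 6.11 in Cre-negative oocytes. In that set 3 Cre-positive samples lay above every Cre-negative one, and replicate 3 was the lowest of all. With mimic Fbxo5 was 8.52, 8.26 and 8.51 in Cre-positive oocytes, against 8.29, 8.21 and 8.33 in Cre-negative oocytes, so 2 of 3 lay above the Cre-negative range. The differences were 0.13 ± 0.11 SE (fold 1.10, 95% interval 0.930 to 1.29, limma adjusted p = 0.948) without mimic and 0.16 ± 0.10 SE (fold 1.11, 95% interval 0.941 to 1.32, limma adjusted p = 0.790) with mimic. The first of these was 0.23 without Cre-positive replicate 3 (limma adjusted p = 0.634), 0.02 without replicates 1 and 4, and 0.04 under median scaling.

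As a group, the 8 transcripts were split 4 higher and 4 lower in Cre-positive oocytes without mimic, with a median log2 difference of -0.02. The median over all 9546 genes tested in that set was -0.01. None of the 8 passed, where 0.0419% of all genes did, and none had an unadjusted p under 0.05, where 4.67% of all genes did. In no case were the groups free of overlap, where 2.91% of all genes were. Adjusted p-values lay between 0.948 and 0.993. The lowest bound of the 8 intervals of 95% was a fold of 0.660 (Wee2) and the highest 1.31 (Cdc25c). For dim probes, such as those of Ccnb2, Cdc25b and Cdc25c in this set, the added offset narrows such bounds. With arrays scaled to their medians in place of quantile normalization the split without mimic was 1 higher and 7 lower, while the median over all genes moved to -0.07 and 28.8% of all genes lay above 0.

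With mimic 7 of the 8 lay above 0 and 1 (Cdc25c) below, with a median of 0.08, beside 0.00 over all 9883 genes and 50.5% of genes above 0. None passed, where 0.132% of all genes did, and none had an unadjusted p under 0.05, where 7.50% of all genes did. Adjusted p-values lay between 0.785 and 0.988. The lowest bound of the intervals was a fold of 0.839 (Cdc25c) and the highest 1.32 (Fbxo5). The sets differed in how tightly replicates clustered for these 8 genes. Their median residual SD was 0.21 without mimic, beside 0.16 over all genes, and 0.09 with mimic, beside 0.15 over all genes.

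**Figure D3:**
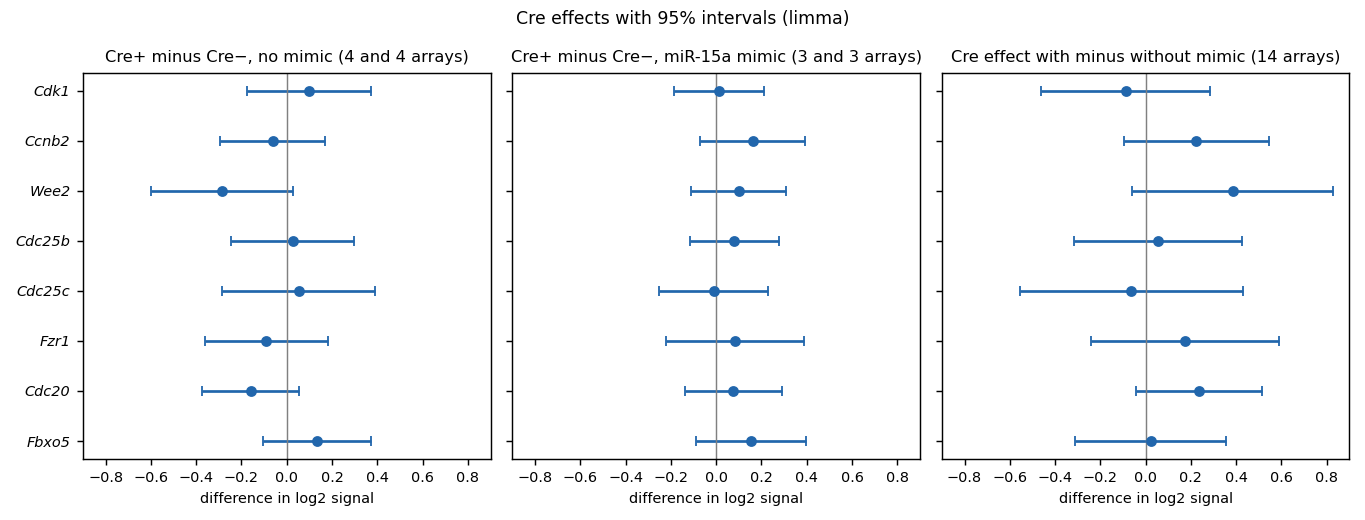
Differences in log2 signal (points) with 95% intervals from limma for the 8 genes. From left to right the panels show Cre-positive minus Cre-negative without mimic, the same with miR-15a mimic, and the effect with mimic minus the effect without it. All 24 intervals include 0.

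The difference between the Cre effects, with mimic minus without, was tested in a fit of all 14 arrays over 9109 genes. None of the 8 passed (limma adjusted p = 0.9999 for each), where 0% of all genes did, and none had an unadjusted p under 0.05, where 4.54% of all genes did. Wee2 differed by 0.39 ± 0.21 SE (95% interval -0.06 to 0.83), Cdc20 by 0.23 ± 0.13 SE and Ccnb2 by 0.22 ± 0.15 SE. The last of these was 0.07 without background correction and 0.43 at an offset of 1. Cdk1 and Cdc25c had negative differences, of -0.09 ± 0.18 SE and -0.06 ± 0.23 SE. With Cre-positive replicates 1 and 4 without mimic left out, the Wee2 difference was 0.09. Mimic against no mimic was not tested, because presence of the mimic and table of normalization are the same split of the arrays. The difference of the Cre effects lies across that split too, so mimic and set cannot be told apart in it. Its fit also shares 1 spread per gene between the sets, whose median residual SD for the 8 genes was 0.21 without and 0.09 with mimic.

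Several of the genes are read by more than 1 probe, so the effects were also computed probe by probe. Of the 17 probes 16 passed the detection filter without mimic, and 6 of those lay above 0 and 10 below. One of them had an unadjusted p under 0.05, where 4.76% of all 13080 passing probes did, and none passed the adjusted threshold, where 0.0382% did. The groups overlapped by each of them, and 2.87% of all passing probes had groups that did not. With mimic all 17 passed, with 11 above 0 and 6 below and none with an unadjusted p under 0.05, where 7.35% of 13563 passing probes did, and none passed, where 0.118% did. Groups without overlap were seen by 1 probe of the 17, that of Ccnb2, and by 12.7% of all passing probes. Probes of the same gene disagreed in sign for Cdk1, Cdc25c and Fzr1 without mimic, and for Cdk1 and Cdc20 with mimic.

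**Figure D4:**
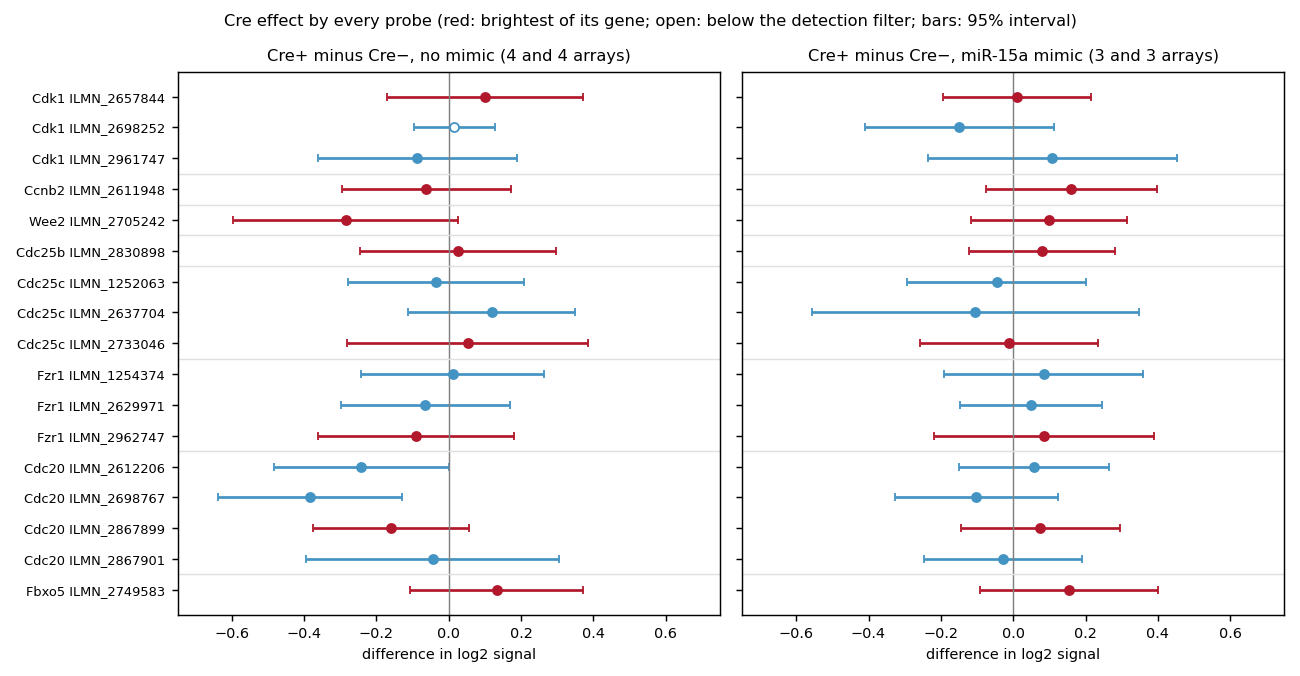
Cre-positive minus Cre-negative log2 signal by every probe of the 8 genes, with 95% intervals from limma, without mimic (left) and with miR-15a mimic (right). Red points are the brightest probe of a gene and the open point failed the detection filter. The 4 Cdc20 probes lie below 0 without mimic, and the interval of ILMN_2698767 is the only one in the plot that leaves out 0.

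The gene most like Cdk1 over the 14 arrays was sought among 9108 others, by the root mean square distance between log2 signals centred within each set. The nearest were Slc31a1, a copper transporter, at 0.08, Eif4enif1, which encodes the eIF4E transporter 4E-T, at 0.08, and Bzw1 at 0.09. The median distance over all genes was 0.21. The Cre effects of these 3 genes were 0.10, -0.04 and -0.04 without mimic and -0.08, 0.13 and -0.03 with mimic. The genes were picked on the same arrays, so small Cre effects are largely set by the choice. No chance level for the smallest distance was computed.

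The wider pathway was described with 5 lists holding 55 genes, of which 49 have a probe, 45 were tested without mimic and 43 with mimic. None passed in either set (limma, adjusted p under 0.05). In each set 2 had an unadjusted p under 0.05, Anapc4 and Ube2c without mimic and Cdk7 and Ube2c with mimic. Of all genes, 4.67% without mimic and 7.50% with mimic had such a p, so these counts are no higher than the background, and the genes named next are given by the rule for naming and not as changed. Over the lists together, 22 of 45 genes lay above 0 without mimic, with a median of -0.00, and 23 of 43 with mimic, with a median of 0.01. The lists were chosen with earlier results of these data known.

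Ube2c encodes the ubiquitin-conjugating enzyme that starts ubiquitin chains on APC/C substrates, cyclin B among them. It was 5.82, 5.70, 6.14 and 5.98 in Cre-positive oocytes without mimic, against 6.23, 6.01, 6.21 and 6.23 in Cre-negative oocytes. With mimic Ube2c was 8.07, 8.02 and 7.80 in Cre-positive oocytes, against 8.68, 8.30 and 8.43 in Cre-negative oocytes, with no overlap. Groups did not overlap for 12.6% of all genes tested with mimic, and other listed genes, Cdk7 and Ppp2r2b among them, shared this. The differences for Ube2c were -0.26 ± 0.11 SE without mimic (limma adjusted p = 0.948) and -0.50 ± 0.13 SE with mimic (limma adjusted p = 0.430), so neither passed. A single probe reads Ube2c.

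Anapc4, a scaffold subunit of the APC/C, leaned the other way, at 0.40 ± 0.17 SE without mimic (limma adjusted p = 0.948) and 0.28 ± 0.13 SE with mimic (limma adjusted p = 0.681). Its highest value without mimic, 8.93, was on Cre-positive replicate 4, the array on the outlying principal component, and the other Cre-positive values were 8.40, 8.23 and 7.93, against 7.77, 8.24, 7.91 and 7.97 in Cre-negative oocytes. The 14 APC/C subunits and conjugating enzymes tested without mimic had a median of 0.03, with 8 above 0, and the 13 tested with mimic a median of 0.12, with 10 above 0.

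Among 10 other CDK1 regulators, Cdk7, the kinase that phosphorylates the activation loop of CDK1, stood at 0.18 ± 0.12 SE without mimic and 0.44 ± 0.18 SE with mimic (limma adjusted p = 0.948 and 0.644). Its partner Mnat1 stood at -0.22 without mimic by its brightest probe and at -0.00 by its other. Wee1, the somatic counterpart of Wee2, stood at -0.07 ± 0.13 SE without mimic and 0.44 ± 0.19 SE with mimic (limma adjusted p = 0.970 and 0.680). This list had medians of -0.02 in each set.

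The Greatwall and PP2A-B55 list covers the phosphatase that opposes CDK1 and the kinase pathway that silences it. Ppp2r2b, a B55 regulatory subunit, stood at -0.24 ± 0.12 SE without mimic and -0.25 ± 0.11 SE with mimic (limma adjusted p = 0.948 and 0.674). Also by the smallest p, Ensa, a phosphatase inhibitor of that pathway, stood at -0.15 without mimic and Ppp2r2c, another B55 subunit, at -0.20 with mimic. List medians were 0.00 for 10 genes without mimic and -0.04 for 9 genes with mimic.

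In the Mos and MAPK list 4 of 8 genes have a probe, and Map2k1, which encodes the kinase MEK1, and Rps6ka3, an RSK kinase, had the smallest p in each set. Map2k1 stood at 0.14 without and 0.16 with mimic, Rps6ka3 at 0.12 and 0.17. Among 7 other APC/C substrates and mitotic kinases the median was -0.03 without and 0.05 with mimic. Aurka, the kinase of spindle poles, stood at -0.14 and Pttg1, which encodes securin, at 0.12 without mimic. Skp2, a substrate receptor of the SCF ubiquitin ligase, and Cdc6, a replication licensing factor, stood at -0.09 and -0.07 with mimic by their brightest probes. The other passing Skp2 probes gave 0.22 and 0.24 with mimic, and the other passing Cdc6 probe gave 0.19. Without mimic Skp2 stood at 0.05 by its brightest probe and at 0.19 and 0.25 by the others.

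**Figure D5:**
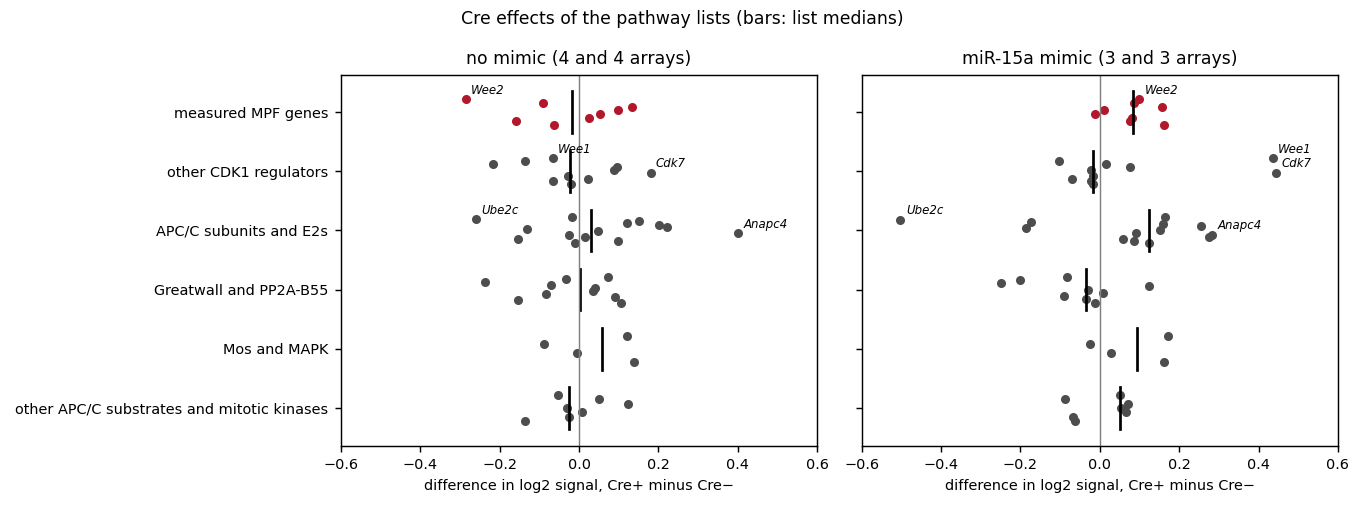
Cre-positive minus Cre-negative log2 signal of each tested gene (points) in the 8 measured genes of the maturation-promoting factor group (red) and the 5 pathway lists (grey), with list medians (bars), without mimic (left) and with miR-15a mimic (right). Ube2c, at -0.26 and -0.50, is the lowest grey point in both sets.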

How the data were processed

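The authors deposited, for each set of arrays, raw probe intensity with a detection p-value and a normalized table of log2 signal, per the file headers. The deposited log2 values equalled a quantile normalization of log2 raw intensity within the set. No source used here names scanner or software. From the intensities the background was removed with the nec function of limma 3.58.1 in R 4.3.3 (negative controls inferred from detection p-values, offset 16). Values were then put on the log2 scale, and arrays of a set were brought together by quantile normalization. Tests took in probes with detection p under 0.05 on 4 or more arrays without mimic, or 3 or more with mimic. The probe with the highest mean stood for its gene. The platform annotation gave 1719 of 25697 probes either no gene symbol or more than 1, and these stayed in under their own ID. Groups were compared with lmFit and eBayes of limma, two-sided, with Benjamini-Hochberg adjustment over all genes. The procedure was tested on simulated data. The deposited array files name no genome build, so no gene coordinates are given. The microRNA sequence comes from RefSeq.

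The members, lists and tests were chosen with earlier results of these data known. All members were named, and from each pathway list the genes past the threshold or else the 2 with the smallest p in each set. For Cdk1 and Ccnb1 (which has no probe of its own symbol alone) the 3 nearest profiles were to be named. Alternatives were other backgrounds, offsets, scalings, filters and probe choices, eBayes with trend, a shared spread, a replicate block and leaving out arrays. The number of arrays limits the precision.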

Additional observations from a re-analysis of the deposited data

Results flagged for a closer look

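Among 34 groups of 4 arrays (17 probes, Cre-positive and Cre-negative, without mimic), 5 held a sample far from the other 3 by Dixon's test, where chance gives about 1 in 20. Over all 13080 passing probes the share was 5.40%. Probes of a gene share arrays and transcripts, so these 5 are not independent. Cdc20 probe ILMN_2867901 was 5.84 in Cre-positive replicate 4, against 6.58 to 6.63 in the other Cre-positive samples. Cdc20 probe ILMN_2698767 was 7.13 in Cre-positive replicate 3, against 6.73 to 6.79. Fbxo5 was 5.99 in Cre-positive replicate 3, against 6.35 to 6.41. Wee2 was 7.69 in Cre-negative replicate 1, against 7.44 to 7.47 in the other Cre-negative samples. Ccnb2 was 4.70 in the same sample, against 4.38 to 4.40. All values are log2 signal.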

How the results depend on the processing

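The number of the 8 transcripts that passed was 0 in each of 19 alternatives for the Cre effect without mimic, 16 with mimic and 24 for the difference of the Cre effects, with limma's smallest adjusted p at 0.594, 0.702 and 0.806. It was 0 with each array left out, and at most 2 (without mimic) and 1 (with mimic and for the difference) had an unadjusted p under 0.05. The sign of a single transcript's value changed in 13 of 151, 5 of 128 and 12 of 191 recomputations. Replicate numbers gave no sign of pairing without mimic, where same-numbered deviations correlated at -0.07 to 0.01. With mimic they correlated at 0.04 to 0.21, and replicates 2 and 3 of the Cre-positive samples correlated best with their own number. Samples of that set may therefore be paired, which so few arrays cannot settle. With the replicate block 0 of the 8 passed in each comparison, and over all genes 4, 3 and 0 passed, against 4, 13 and 0 without it. Over all alternatives the calls over all genes numbered 2 to 5 without mimic, 2 to 26 with mimic and 0 to 4 for the difference. Beside the values given in the report, Ccnb2 stood at -0.20 without mimic at an offset of 1, Cdc25b at 0.03 with mimic under median scaling, and the Cdk1 difference at -0.27 without Cre-positive replicates 1 and 4. Signal over background limits most Ccnb2 and Cdk1 probe ILMN_2698252, which lie near it. Without mimic Cdc25b, Cdc25c and Cdk1 probe ILMN_2961747 were also dim.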
